A study of Mus musculus with 35 samples.

Results

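A list of 33 genes of the lysosome and of autophagy was followed in mouse leukemia cells, at the level of mRNA and of ribosome footprints. The genes form a list of named lysosome and autophagy genes, and each was found by its Ensembl identifier among the 55487 genes of both count tables. They comprise 13 hydrolases (Ctsa, Ctsb, Ctsd, Ctsl, Ctss, Ctsz, Lgmn, Hexa, Gla, Gaa, Gusb, Neu1 and Asah1), 2 hydrolase cofactors or precursors (Psap and Grn), 5 membrane proteins (Lamp1, Lamp2, Cd63, Scarb2 and Mcoln1), 3 subunits of the proton pump (Atp6v0d1, Atp6v1a and Atp6v1h), 2 transcription factors (Tfeb and Tfe3) and 8 autophagy genes (Ulk1, Becn1, Wipi2, Atg5, Atg7, Map1lc3b, Gabarapl2 and Sqstm1).

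The cells were MLL-AF9 acute myeloid leukemia cells marked with GFP and carrying a guide against Ogfod1 (sgOgfod1) or a scrambled guide (sgScramble). Ogfod1 encodes a prolyl hydroxylase that modifies a ribosomal protein. Male recipient mice of 8 to 10 weeks were injected with leukemia cells. Treated mice were given a diet free of branched-chain amino acids (BCAA) together with the chemotherapy 5+3, in which 5 daily doses of cytarabine (100 mg/kg) overlap with doxorubicin (3 mg/kg) on the first 3 days. Vehicle mice had a standard amino acid diet and PBS. RNA was sequenced from 6 treated sgOgfod1, 7 treated sgScramble, 5 vehicle sgOgfod1 and 5 vehicle sgScramble mice, and footprints from 2, 4, 3 and 3 mice of these groups in the same order. The 12 mice with footprints also had RNA. Diet and chemotherapy were changed together, so their effects cannot be told apart. The leukemia was 1 line, grown outside the animal from a single sick mouse, and the sort for GFP took whole bone marrow, so host cells that passed the gate would be counted too. In such bulk libraries, fewer cells of a type and less RNA per cell cannot be told apart.

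The lysosome is an acidic compartment in which hydrolases break down proteins, lipids and sugars, and a proton pump, the V-ATPase, keeps it acidic. Autophagy delivers cytoplasm to it in double membranes that are built by Ulk1, Becn1 and the Atg proteins. Leucine and other amino acids activate the kinase mTORC1 at the lysosomal surface. Active mTORC1 restrains Ulk1 and holds Tfeb and Tfe3, the transcription factors that switch on many lysosomal genes through the E-box CACGTG, in the cytoplasm.

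RNA libraries held 31.9 to 142.7 M counts (M, mega, median 56.1 M) and footprint libraries 5.71 to 14.6 M (median 9.27 M). A member had between 229 and 293495 counts in an RNA library and between 13 and 5863 in a footprint library. Ogfod1 RNA was lower in sgOgfod1 than in sgScramble mice by a log2 change of -1.24 ± 0.21 (SE) under treatment (adjusted p = 0.00608) and -1.07 ± 0.24 under vehicle (adjusted p = 0.0846). Its footprints were lower by -2.77 (adjusted p = 8.99e-05) and -2.67 (adjusted p = 2.68e-05). The 10 genes taken as signs of the leukemia, among them Ptprc, Itgam, Hoxa9 and Meis1, summed to 3175 to 7770 CPM (counts divided by the TMM-scaled library total in M) in the RNA of treated mice and 4299 to 6363 CPM in vehicle mice. The median sum was 6512 CPM in treated sgOgfod1 and 6338.5 CPM in treated sgScramble mice. It was 5102 CPM in vehicle sgOgfod1 and 4546 CPM in vehicle sgScramble mice, so the sum as a whole was higher with treatment. Kit, Cd34 and Csf1r, members of the sum, had lower medians in treated mice. Kit had median RNA of 42.2 CPM in treated sgOgfod1 and 61.4 CPM in treated sgScramble mice, against 167 CPM in vehicle sgOgfod1 and 232 CPM in vehicle sgScramble mice. Cd34 had medians of 37.5 and 69.9 CPM in treated sgOgfod1 and sgScramble mice, against 209.8 and 245 CPM in vehicle sgOgfod1 and sgScramble mice, and Csf1r had 45.5 and 70.6 CPM, against 147 and 132 CPM. Kit and Cd34 did not overlap between treated and vehicle mice of either genotype. Treated sgScramble mice 4, 6 and 7 stood apart by tissue macrophage markers, as described beside the genes concerned. Markers of neutrophils, 12 genes such as S100a8 and Ngp, were also higher in treated mice, with median sums of 42649 CPM in treated sgOgfod1 and 39159 CPM in treated sgScramble against 12830 CPM in vehicle sgOgfod1 and 11053 CPM in vehicle sgScramble RNA. Their part in the results below was not tested.

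Levels are compared between genes only per length, as CPM per kb of the principal transcript for RNA and of its coding sequence for footprints. In vehicle sgScramble cells Cd63, a tetraspanin of late endosomes, had the highest level of the 33 in both assays, with 592 ± 65.4 RNA CPM per kb (SD, n = 5) and 458 ± 19.0 footprint CPM per kb (n = 3). Lamp1 and Lamp2, the heavily glycosylated proteins that line the membrane, followed in RNA with 414 ± 23.4 and 305 ± 48.2 CPM per kb. Ctsz and Ctsd, a carboxypeptidase and an aspartic protease, came next with 214 ± 22.2 and 211 ± 18.4 CPM per kb, a difference within their spread. The lowest RNA levels were those of Lgmn (5.11 ± 0.30), Ulk1 (5.05 ± 0.88), Tfeb (4.41 ± 0.29) and the cysteine protease Ctsl (3.20 ± 0.78), all in CPM per kb. Lgmn and Ulk1 lay within each other's spread. Footprint counts of Cd63 are uncertain, since its processed pseudogene Cd63-ps was given 25129 footprint counts beside 31184 for Cd63, while in RNA the pseudogene had 10263 counts beside 1099840. Of the 33 genes 16 overlap another annotated gene, 11 of them a protein-coding one, and the RNA protocol kept no strand, so reads in the overlaps cannot be assigned with certainty. This applies among others to Ctsl, which overlaps an antisense gene, and to Map1lc3b, which overlaps the same-strand gene Gm20388.

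Promoters are shown because many of these genes are known to carry the E-box that Tfeb and Tfe3 bind. RefSeq windows (GRCm38.p6) of 300 bases, from 250 before to 50 after the start, were at hand for 29 of the 33. CACGTG, which reads the same on both strands, was in a window of 12 of the 29, and in 8.09% of the 27025 genes with a window. The longer TCACGTG, searched on both strands and always containing CACGTG, was in a window of 10 of the 29 and in 4.29% of all genes with a window. It was found in Ctsd, Lamp1, Atp6v0d1, Ctsa, Lgmn, Atg7, Gla, Gaa, Mcoln1 and Atp6v1a, and in Ctsa and Lgmn in the window farther inside the gene of the 2 they have. Hexa, Cd63, Psap and Ctss held neither motif in these windows. The first 6 of these passed the test in at least 1 comparison below, and the 3 printed are those whose window with TCACGTG lies nearest the start of the gene in the counts' annotation, which for Ctsd lies upstream of the RefSeq start. They lie at chr7:142387778-142388077 on the minus strand (Ctsd), chr8:13158911-13159210 on the plus strand (Lamp1) and chr8:105566015-105566314 on the minus strand (Atp6v0d1). Each is written on the gene's own strand, with each CACGTG and any adjoining base that makes TCACGTG on either strand in capitals.
Ctsd: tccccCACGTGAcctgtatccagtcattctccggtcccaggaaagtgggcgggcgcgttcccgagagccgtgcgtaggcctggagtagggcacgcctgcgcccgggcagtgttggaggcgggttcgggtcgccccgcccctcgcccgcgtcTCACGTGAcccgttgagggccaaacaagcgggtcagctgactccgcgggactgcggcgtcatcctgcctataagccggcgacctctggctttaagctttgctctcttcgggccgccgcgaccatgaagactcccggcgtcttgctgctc
Lamp1: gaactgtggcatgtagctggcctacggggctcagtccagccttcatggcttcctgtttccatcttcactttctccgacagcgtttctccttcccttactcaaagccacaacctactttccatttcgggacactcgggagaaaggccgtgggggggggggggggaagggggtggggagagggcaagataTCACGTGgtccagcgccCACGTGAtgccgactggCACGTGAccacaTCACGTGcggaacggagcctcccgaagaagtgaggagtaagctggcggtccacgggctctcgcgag
Atp6v0d1: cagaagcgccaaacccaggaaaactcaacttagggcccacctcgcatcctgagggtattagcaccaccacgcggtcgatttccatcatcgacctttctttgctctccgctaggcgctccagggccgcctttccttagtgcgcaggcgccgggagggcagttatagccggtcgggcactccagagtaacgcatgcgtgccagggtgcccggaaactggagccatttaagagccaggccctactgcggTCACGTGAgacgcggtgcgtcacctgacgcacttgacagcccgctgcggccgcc
Ctsd holds 2 such sites, with the nearer one 98 bases before the start, Lamp1 holds 4 between 61 and 15 bases before it, and Atp6v0d1 holds 1 across the start. A match of letters is a description and not a bound site. 

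The first question of the design is what treatment did in each genotype. Few of the 33 genes were called in either assay, at shares near those of all genes in RNA, and most calls in footprints were lower. In sgOgfod1 cells 3 of 33 were called in RNA, with Ctsl and Cd63 higher and Hexa lower, beside 9.87% of all genes (5.69% higher, 4.18% lower) and 12.5% of protein-coding genes (7.0% higher, 5.46% lower). In sgScramble cells 6 of 33 were called, with Ctsd, Ctsl, Lgmn, Atp6v0d1 and Atg7 higher and Hexa lower, beside 12.9% of all genes (8.6% higher, 4.34% lower) and 16.5% of protein-coding genes (11.1% higher, 5.46% lower). In footprints of sgOgfod1 cells 6 of 33 were called, beside 8.22% of all genes (4.65% higher, 3.56% lower) and 7.69% of protein-coding genes (2.67% higher, 5.02% lower). Of these 6, Ctsl was higher and Ctss, Psap, Hexa, Lamp1 and Ulk1 lower. In footprints of sgScramble cells 8 of 33 were called, beside 15.6% of all genes (8.12% higher, 7.44% lower) and 16.5% of protein-coding genes (6.23% higher, 10.3% lower). Of these 8, Ctsl and Lgmn were higher and Ctsa, Ctsz, Hexa, Neu1, Asah1 and Lamp1 lower. Without a scaling factor there were 0 higher and 12 lower in sgScramble footprints, beside 653 higher and 3611 lower of all 18290 genes. With a replicate block there were 0 higher and 6 lower, beside 1439 higher and 1107 lower of all genes. In sgOgfod1 footprints the setting without a scaling factor gave 0 higher and 6 lower, beside 431 higher and 837 lower of all genes. The replicate block gave 0 higher and 4 lower there, beside 726 higher and 513 lower of all genes.

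The median log2 change of the 33 in RNA was 0.10 in sgOgfod1 and 0.20 in sgScramble cells, with 22 of 33 values above 0 in each, beside medians of 0.01 and 0.03 over protein-coding genes. In footprints it was -0.27 in sgOgfod1 and -0.13 in sgScramble cells, with 8 and 11 of 33 above 0, beside -0.08 in both over protein-coding genes. Scaled on protein-coding genes alone, the footprint medians of the 33 were -0.19 and -0.06. In the RNA of the 12 mice that also had footprints the medians were -0.19 in sgOgfod1 and -0.06 in sgScramble cells. There 10 and 13 of 33 were above 0, and the medians over all genes were -0.01 and -0.06. Without a scaling factor the RNA medians over all mice were -0.06 and 0.02, beside -0.16 and -0.17 over all genes. With limma voom they were -0.02 and 0.00, beside -0.04 and -0.001 over all genes. The sign of the RNA median thus depends on the mice and the scaling, and leaving out the scaling factor lowered the median of all genes too. Leaving out treated sgScramble mice 4, 6 and 7 was a choice made after seeing the data. It gave an RNA median of -0.03 in sgScramble cells, beside 0.02 over all genes. Of the 33, 2 were called higher and 2 lower, beside 6.67% of all genes called. In sgOgfod1 cells, whose libraries stayed the same but share the estimate of spread, it gave 9 higher and 3 lower. There the share of all genes called was 19.5% (2370 higher and 1930 lower of 22023). Library numbers from 17 up occur only among treated mice, and the labels do not say what the numbers stand for. With a term for them, 1 call was left in sgScramble RNA, beside 7.67% of all genes, and 2 in sgScramble footprints, beside 8.22%. In sgOgfod1 footprints 0 calls were left, beside 0.0328% of all genes. All treated sgOgfod1 footprint libraries have numbers from 17 up, so within that genotype the numbers and treatment cannot be told apart. In the other sets they are only partly told apart. Of the 13 hydrolases 3 rose and 1 fell in sgScramble RNA, while 2 rose and 5 fell in sgScramble footprints. The 3 pump subunits had positive RNA values in both genotypes, of which 1 passed the test.

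**Figure D1:**
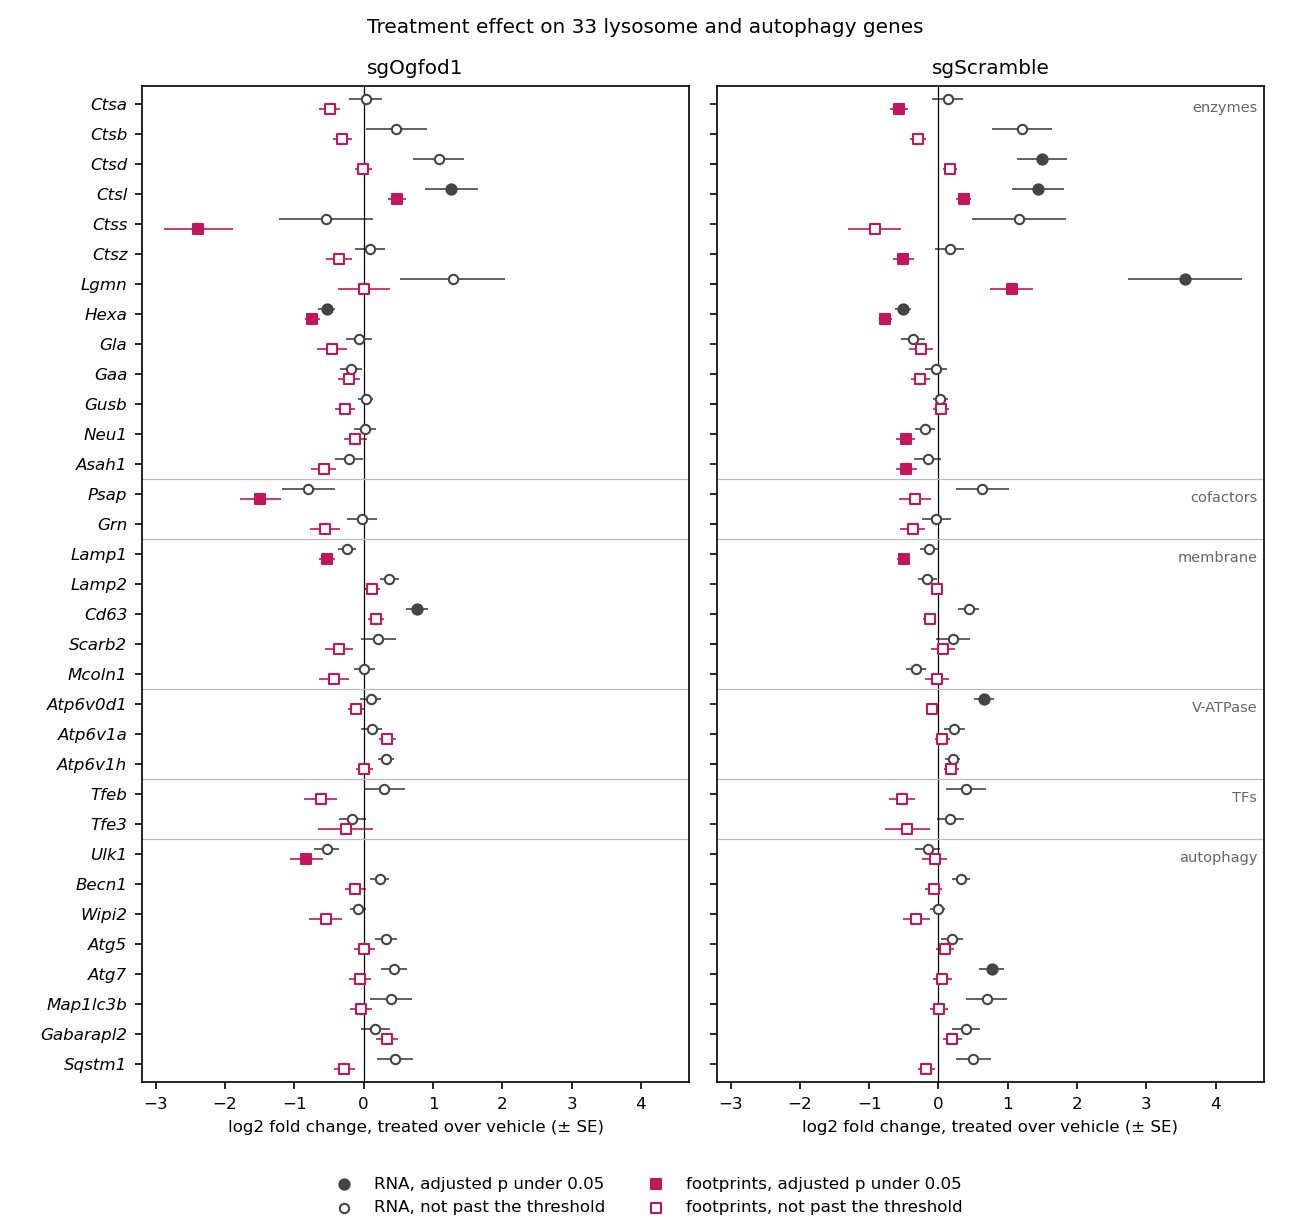
Log2 fold change of treated over vehicle mice with its standard error for the 33 genes, in sgOgfod1 cells on the left and sgScramble cells on the right. Circles are RNA and squares are footprints, and filled symbols had an adjusted p under 0.05. Hexa lies left of 0 in all 4 sets, while Lgmn in sgScramble cells reaches 3.56 in RNA and 1.05 in footprints.

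Hexa, the alpha subunit of the hexosaminidase that degrades GM2 ganglioside, fell in both genotypes and both assays. Its RNA ran from 221 to 332 CPM (median 233) in treated sgOgfod1 mice, against 369, 356, 437, 308 and 326 CPM in vehicle sgOgfod1 mice. In treated sgScramble mice it ran from 201 to 296 CPM (median 240.1), against 379, 374, 332, 361 and 310.5 CPM in vehicle sgScramble mice. Only treated sgOgfod1 mouse 3, the highest of its group, overlapped the vehicle range, and the sgScramble groups did not overlap. The log2 changes were -0.53 ± 0.12 (adjusted p = 0.00692) in sgOgfod1 and -0.51 ± 0.12 (adjusted p = 0.00547) in sgScramble cells. Footprints of Hexa were 78.6 and 86.0 CPM in treated sgOgfod1 mice, against 144, 128 and 140.3 CPM in vehicle sgOgfod1 mice. They were 73.9, 72.0, 73.9 and 84.9 CPM in treated sgScramble mice, against 128, 134 and 127 CPM in vehicle sgScramble mice. Treated and vehicle mice did not overlap, with log2 changes of -0.74 ± 0.11 (adjusted p = 0.00156) in sgOgfod1 and -0.77 ± 0.09 (adjusted p = 0.000132) in sgScramble cells. These 4 calls held on leaving out any 1 library.

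Other hydrolases fell in the footprints of sgScramble cells and did not pass the test in RNA, which covered more mice. Ctsa, the carboxypeptidase that shields Neu1 from degradation, had 108.5, 123, 117 and 85.1 footprint CPM in treated sgScramble mice, against 164, 165 and 156 CPM in vehicle sgScramble mice. The groups did not overlap, and the log2 change was -0.57 ± 0.13 (adjusted p = 0.00668). Neu1, the sialidase, had 32.9, 38.3, 34.7 and 33.9 footprint CPM in treated sgScramble mice, against 51.7, 52.5 and 41.4 CPM in vehicle sgScramble mice, again without overlap (-0.47 ± 0.14, adjusted p = 0.0262). Ctsz averaged 83.7 ± 8.09 CPM in treated and 119 ± 1.96 CPM in vehicle sgScramble mice (SD, n = 4 and 3), a log2 change of -0.51 (adjusted p = 0.0375). Asah1, the acid ceramidase, averaged 53.0 ± 2.87 CPM in treated and 73.2 ± 7.02 CPM in vehicle sgScramble mice, a log2 change of -0.47 (adjusted p = 0.0469). In sgOgfod1 cells the footprint log2 changes were -0.49 for Ctsa, -0.12 for Neu1, -0.36 for Ctsz and -0.58 for Asah1, none past the threshold with 2 treated mice. RNA changes of these 4 genes over all mice lay between -0.22 and 0.16 in both genotypes. Treated sgScramble mice 4, 6 and 7 had RNA but no footprints. In the sgScramble mice with footprints, Asah1 RNA was 211, 233, 222 and 248 CPM in treated against 373, 292 and 359 CPM in vehicle mice. Ctsa RNA was 272, 283, 250 and 230 CPM against 322, 303 and 292 CPM, also without overlap, while Ctsz and Neu1 RNA overlapped. Of the 8 footprint calls in sgScramble cells, Hexa, Lamp1 and Ctsa remained on leaving out any 1 of the 7 libraries, while the total dropped to 3 or 4 without any of them.

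**Figure D2:**
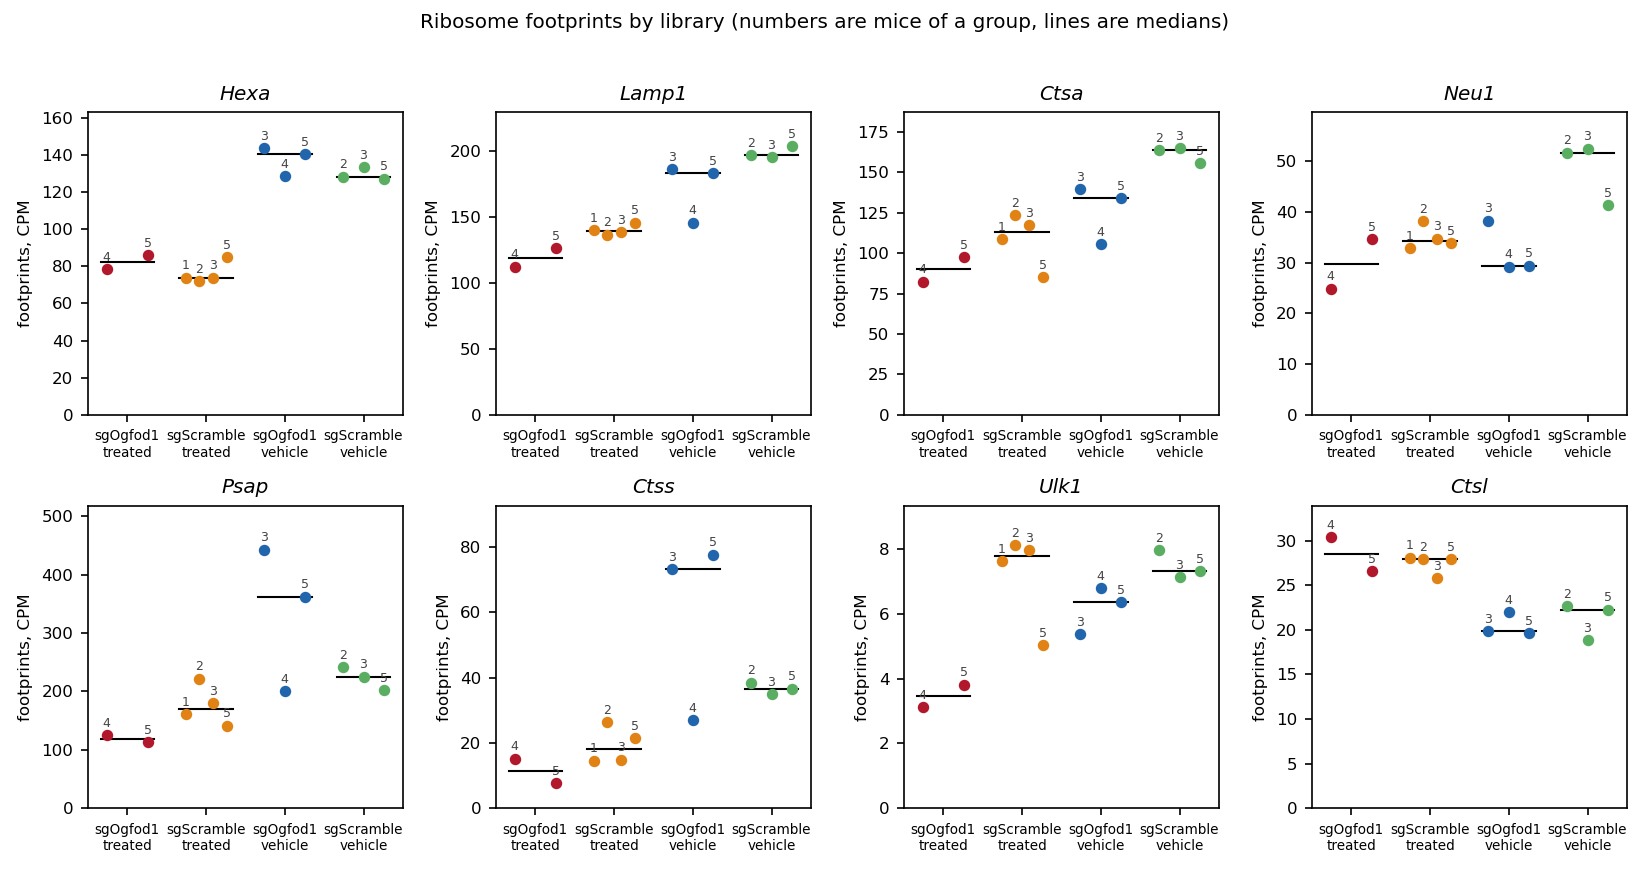
Footprint CPM of 8 genes in each of the 12 footprint libraries, treated left of vehicle, with the mouse number beside each point and a line at the median of the group. Hexa and Lamp1 show treated mice below all vehicle mice, Ulk1 is at 3.11 and 3.81 CPM in treated sgOgfod1 mice, and Ctsl is the 1 gene of the 8 that is higher in treated mice.

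Ctsl, a cysteine endoprotease, passed the test as higher in both assays and genotypes, but both footprint calls were lost under several settings. Its RNA ran from 21.3 to 73.5 CPM (median 34.4) in treated sgOgfod1 mice, against 19.0, 15.4, 16.3, 14.4 and 18.9 CPM in vehicle sgOgfod1 mice. In treated sgScramble mice it ran from 23.6 to 124 CPM (median 30.8), against 17.3, 28.2, 17.0, 16.8 and 19.3 CPM in vehicle sgScramble mice. The sgOgfod1 groups did not overlap, and in sgScramble only vehicle mouse 2 reached into the treated range. The log2 changes were 1.26 ± 0.38 (adjusted p = 0.0376) in sgOgfod1 and 1.44 ± 0.38 (adjusted p = 0.013) in sgScramble cells. These RNA changes cover more mice than the footprints. Among sgOgfod1 mice with footprints, Ctsl RNA was 21.6 and 21.3 CPM after treatment, against 16.3, 14.4 and 18.9 CPM after vehicle. For sgScramble the RNA values were 23.6, 28.8, 29.3 and 30.8 CPM against 28.2, 17.0 and 19.3 CPM, with overlap. Footprints of the sgOgfod1 mice were 30.4 and 26.6 CPM after treatment, against 19.9, 22.0 and 19.6 CPM after vehicle. Those of the sgScramble mice were 28.1, 27.9, 25.8 and 27.9 CPM against 22.7, 18.9 and 22.3 CPM. Whether footprints rose less than RNA in the same mice was not tested for Ctsl alone. Both footprint comparisons were without overlap, with log2 changes of 0.48 ± 0.13 (adjusted p = 0.0304) in sgOgfod1 and 0.36 ± 0.11 (adjusted p = 0.0347) in sgScramble cells. In sgOgfod1 RNA 7 of 11 single libraries left out ended the call, treated mice 1 and 3 among them (log2 changes of 1.02 and 1.15). Of the footprint libraries, 3 of 5 in sgOgfod1 and 6 of 7 in sgScramble cells ended the call when left out. Without a scaling factor the footprint changes were 0.39 (adjusted p = 0.105) in sgOgfod1 and 0.16 (adjusted p = 0.356) in sgScramble cells. With a replicate block they were 0.42 (adjusted p = 0.0948) and 0.35 (adjusted p = 0.0665), and the calls were also lost without the filter on low counts and with a term for library numbers. The RNA call in sgScramble cells ended without treated mice 4, 6 and 7, at a log2 change of 0.52 (adjusted p = 0.321).

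Lgmn and Ctsd rose in sgScramble RNA with most of the rise in 3 mice. Lgmn, the asparaginyl endopeptidase that matures several cathepsins, had 394, 193 and 180.3 RNA CPM in treated sgScramble mice 4, 6 and 7 and 11.8, 22.6, 22.3 and 14.7 CPM in treated sgScramble mice 1, 2, 3 and 5. Vehicle sgScramble mice had 11.0, 9.54, 9.77, 10.5 and 10.0 CPM, below every treated mouse. The log2 change was 3.56 ± 0.83 (adjusted p = 0.0059). It was 2.85 without treated mouse 4, and 0.82 ± 0.49 without mice 4, 6 and 7 (adjusted p = 0.396). Ctsd had 2765, 1642 and 1870 RNA CPM in treated sgScramble mice 4, 6 and 7 and 541 to 710 CPM in the other 4, against 496, 477, 404, 452 and 416 CPM in vehicle sgScramble mice. The groups did not overlap (1.49 ± 0.37, adjusted p = 0.00868), and without mice 4, 6 and 7 the log2 change was 0.53 ± 0.25 (adjusted p = 0.246). In sgOgfod1 RNA Ctsd ran from 468 to 1420 CPM (median 726) in treated mice, against 353 to 475 CPM (median 441) in vehicle mice, with overlap, a log2 change of 1.08 ± 0.37 that missed the threshold (adjusted p = 0.0646).

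Tissue macrophage markers moved with these genes. The summed RNA of 16 such genes, among them C1qa, Vsig4, Mertk and Adgre1, was 5865, 3185 and 3232 CPM in treated sgScramble mice 4, 6 and 7 and 628, 946, 937 and 736 CPM in mice 1, 2, 3 and 5. It was 1572 and 1787 CPM in treated sgOgfod1 mice 1 and 3 and 594 to 1112 CPM in the other 4. Vehicle mice had 484 to 635 CPM in sgOgfod1 and 566 to 751 CPM in sgScramble cells. In RNA 10 of the 16 were higher with treatment in sgOgfod1 and 15 of the 16 in sgScramble cells. In footprints 5 of 13 tested were higher and 1 lower in sgOgfod1, and 10 of 13 were higher in sgScramble cells. Vsig4 had no footprint in both treated sgOgfod1 mice. The part of these markers in the RNA of the cathepsins was not tested. The footprint libraries of treated sgScramble came from mice 1, 2, 3 and 5, whose summed macrophage markers in footprints were 182, 277, 238 and 172 CPM, against 154, 152 and 164 CPM in vehicle sgScramble mice. Most of the marker sum in vehicle sgScramble RNA came from Adgre1 and Slc40a1, with medians of 434 and 226 CPM. Their medians in treated sgScramble mice were 315 and 487 CPM. C1qa had at least 7.07 RNA CPM in every treated sgScramble mouse, against at most 1.11 CPM in vehicle sgScramble mice. Over the 13 markers tested in sgScramble footprints the median log2 change was 3.17. Lgmn footprints were 9.47, 13.6, 11.6 and 6.92 CPM in treated against 5.97, 3.62 and 5.30 CPM in vehicle sgScramble mice (1.05 ± 0.31, adjusted p = 0.0344). This call ended on leaving out 6 of the 7 libraries in turn, and the part of the markers in it was not tested. Ctsd footprints differed by 0.16 ± 0.10 (adjusted p = 0.299), with overlapping groups.

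**Figure D3:**
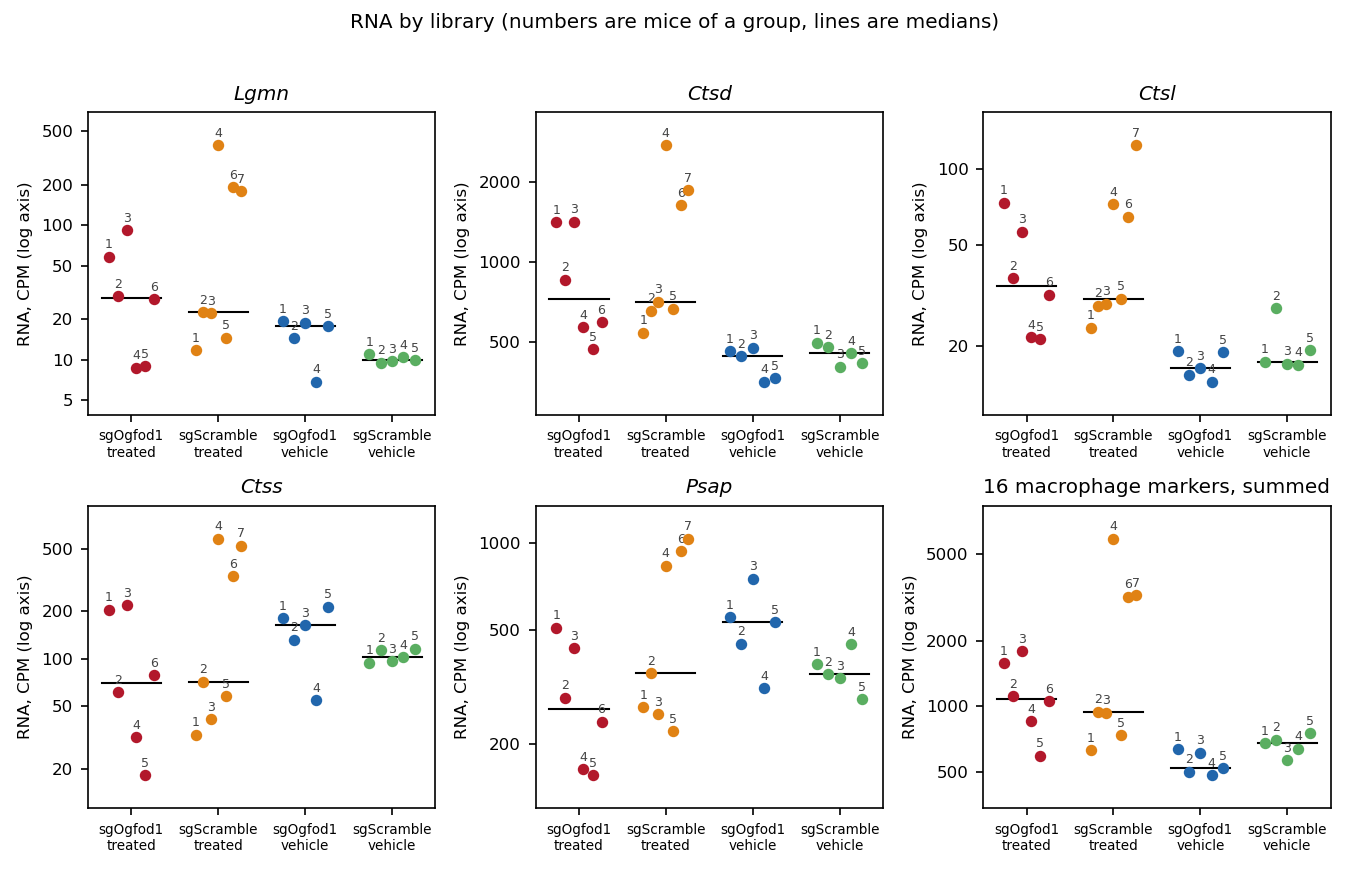
RNA CPM on log axes for 5 genes and for the sum of 16 macrophage markers in each of 23 libraries, treated left of vehicle, with the mouse number beside each point and a line at the median of the group. Mice 4, 6 and 7 are the 3 highest of the treated sgScramble mice in every panel, from 180.3 to 394 CPM for Lgmn and from 3185 to 5865 CPM for the marker sum.

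Ctss and Psap fell in the footprints of sgOgfod1 cells. Ctss, a cysteine protease of antigen-presenting cells, had 15.1 and 7.73 footprint CPM in treated sgOgfod1 mice, against 73.2, 26.9 and 77.6 CPM in vehicle sgOgfod1 mice, without overlap (-2.39 ± 0.50, adjusted p = 0.0214). In sgScramble cells it had 14.6, 26.3, 14.9 and 21.6 CPM in treated mice, against 38.4, 34.9 and 36.7 CPM in vehicle mice, also without overlap but not past the threshold (-0.92 ± 0.38, adjusted p = 0.14). Psap, the precursor of the saposins that help sphingolipid hydrolases, had 125 and 114 footprint CPM in treated sgOgfod1 mice, against 443, 200.5 and 362 CPM in vehicle sgOgfod1 mice (-1.49 ± 0.29, adjusted p = 0.0129). In sgScramble cells its footprints were 161, 222, 180.5 and 142 CPM in treated and 241, 225 and 202 CPM in vehicle mice, which overlapped (-0.34 ± 0.23, adjusted p = 0.354). Vehicle sgOgfod1 mouse 4 was the lowest of its group for both genes. The Psap call ended without treated sgOgfod1 mouse 4 or 5 (-1.56 and -1.42), and the Ctss call without treated mouse 5 or vehicle mouse 3 (-1.98 and -2.22). For the count of 6, leaving out treated mouse 4 or vehicle mouse 3 gave 3, and leaving out vehicle mouse 4 gave 10.

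In RNA the same 2 genes split the treated sgScramble mice. Ctss had 578, 333 and 522 RNA CPM in treated sgScramble mice 4, 6 and 7, above all vehicle sgScramble mice (94.2 to 116 CPM), and 32.8, 71.5, 41.4 and 57.7 CPM in mice 1, 2, 3 and 5, below all of them. Psap had 836, 937 and 1037 CPM in mice 4, 6 and 7 and 222 to 353 CPM in the other 4, against 286 to 446 CPM in vehicle sgScramble mice. The fitted RNA changes in sgScramble cells were 1.16 ± 0.68 for Ctss and 0.63 ± 0.38 for Psap, neither past the threshold. Among the mice that also had footprints, the RNA of sgOgfod1 cells changed by a log2 value of -1.75 for Psap (adjusted p = 0.00844) and -2.54 for Ctss (adjusted p = 0.022), so both assays were lower for this pair in these animals. Grn, the precursor of the granulins, had footprint changes of -0.56 in sgOgfod1 and -0.37 in sgScramble cells, neither past the threshold.

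Among the membrane proteins, Lamp1 fell in footprints and Cd63 rose in RNA. Lamp1 had 112 and 126 footprint CPM in treated sgOgfod1 mice, against 186, 146 and 183 CPM in vehicle sgOgfod1 mice. It had 139.9, 137, 138 and 146 CPM in treated sgScramble mice, against 197, 195 and 204 CPM in vehicle sgScramble mice. Neither pair of groups overlapped, and the log2 changes were -0.53 ± 0.12 (adjusted p = 0.0126) in sgOgfod1 and -0.50 ± 0.10 (adjusted p = 0.00308) in sgScramble cells. The first call ended without treated sgOgfod1 mouse 4 (-0.44). Lamp1 RNA changed by -0.24 ± 0.13 in sgOgfod1 and -0.13 ± 0.13 in sgScramble cells, neither past the threshold. Cd63 RNA ran from 769 to 1516 CPM (median 945) in treated sgOgfod1 mice, against 556, 628, 653, 634 and 455 CPM in vehicle sgOgfod1 mice, without overlap (0.77 ± 0.15, adjusted p = 0.0025). In sgScramble RNA Cd63 averaged 887 ± 136 CPM in treated and 657 ± 72.5 CPM in vehicle mice (SD, n = 7 and 5), a log2 change of 0.43 that narrowly missed the threshold (adjusted p = 0.0543). Its footprint changes were 0.18 in sgOgfod1 and -0.13 in sgScramble cells, neither past the threshold. Lamp2, Scarb2, the receptor that carries glucocerebrosidase, and Mcoln1, a calcium channel, lay between -0.43 and 0.37 in both assays and passed no test.

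Of the pump subunits, Atp6v0d1 rose in sgScramble RNA. It ran from 161 to 271 CPM (median 199) in treated sgScramble mice, against 135, 148, 108, 131 and 144 CPM in vehicle sgScramble mice, without overlap (0.65 ± 0.15, adjusted p = 0.00516). Without mice 4, 6 and 7 the change was 0.52 and still past the threshold (adjusted p = 0.0394). Its footprints averaged 99.7 ± 2.64 CPM in treated and 106 ± 4.07 CPM in vehicle sgScramble mice (SD, n = 4 and 3), a difference within the test's error (adjusted p = 0.563). In sgOgfod1 cells its RNA change was 0.10 ± 0.15. The test of the difference between genotypes gave -0.55 ± 0.21 for this gene (adjusted p = 1), so a larger rise in sgScramble was not established. Atp6v1a and Atp6v1h, subunits of the cytoplasmic part of the pump, had RNA changes of 0.12 to 0.32 and passed no test.

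Of the autophagy genes, Atg7 rose in sgScramble RNA and Ulk1 fell in sgOgfod1 footprints. Atg7, the enzyme that activates Atg8-type proteins for coupling to lipid, ran from 70.1 to 201.5 RNA CPM (median 91.6) in treated sgScramble mice, against 67.8, 55.6, 59.4, 68.5 and 60.0 CPM in vehicle sgScramble mice. The groups did not overlap, and the log2 change was 0.77 ± 0.18 (adjusted p = 0.00785), or 0.41 without mice 4, 6 and 7 (adjusted p = 0.028). In treated sgOgfod1 mice Atg7 RNA ran from 72.2 to 94.5 CPM, above all vehicle sgOgfod1 mice (52.5 to 68.6 CPM), but did not pass the test (0.44 ± 0.19, adjusted p = 0.138). Footprints of Atg7 changed by -0.05 in sgOgfod1 and 0.06 in sgScramble cells. Ulk1, the kinase that starts autophagy, had 3.11 and 3.81 footprint CPM in treated sgOgfod1 mice, against 5.36, 6.78 and 6.36 CPM in vehicle sgOgfod1 mice, without overlap (-0.83 ± 0.24, adjusted p = 0.0394). This call ended on leaving out any 1 of the 5 libraries (-0.98 to -0.68). Its RNA in treated sgOgfod1 mice (12.6 to 24.1 CPM) was below that in vehicle sgOgfod1 mice (24.5 to 29.4 CPM), a log2 change of -0.53 ± 0.18 that missed the threshold (adjusted p = 0.0658). Map1lc3b and Gabarapl2, Atg8-type proteins, and Sqstm1, a cargo receptor, had RNA changes of 0.17 to 0.69 in the 2 genotypes, none past the threshold. Tfeb and Tfe3 had footprint changes of -0.62 and -0.26 in sgOgfod1 and -0.53 and -0.45 in sgScramble cells, also none past the threshold.

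The second question is what loss of Ogfod1 did within a treatment. Few of the 33 genes were called between genotypes, and most values were lower in sgOgfod1 cells. Under treatment the median log2 difference of the 33 was -0.22 in RNA, with 25 of 33 below 0, and -0.23 in footprints, with 28 of 33 below 0, beside -0.04 and 0.01 over all genes. Without treated sgScramble mice 4, 6 and 7 the RNA median turned to 0.15, with 26 of 33 above 0, beside -0.02 over all genes. Without a scaling factor the footprint median was -0.05, with 14 of 33 above 0, beside 0.19 over all genes. The 33 thus still lay below all genes in that setting. Under vehicle the medians were -0.06 in RNA and -0.10 in footprints, with 20 and 22 of 33 below 0. By edgeR's quasi-likelihood test 0 of 33 were called in RNA under treatment, beside 0.391% of all genes, with 6 at an unadjusted p under 0.05. There DESeq2 called 1, Atp6v0d1, as lower in sgOgfod1 cells, beside 2.68% of all genes. Under vehicle 0 of 33 were called in RNA, beside 0.116% of all genes, with 1 at an unadjusted p under 0.05, and DESeq2 also called 0. In footprints under treatment Ulk1 was lower in sgOgfod1 cells, the 1 call of 33 beside 1.58% of all genes (0.99% lower). The 2 treated sgOgfod1 mice (3.11 and 3.81 CPM) lay below treated sgScramble mice (7.62, 8.10, 7.95 and 5.02 CPM), a log2 difference of -1.05 ± 0.23 (adjusted p = 0.0267). Leaving out treated sgOgfod1 mouse 4 or treated sgScramble mouse 1, 2 or 3 ended this call (-1.02 to -0.91).

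In footprints under vehicle 2 of 33 were lower in sgOgfod1 cells, beside 1.81% of all genes (0.902% lower). Neu1 had 38.3, 29.3 and 29.5 footprint CPM in vehicle sgOgfod1 mice, against 51.7, 52.5 and 41.4 CPM in vehicle sgScramble mice, without overlap (-0.59 ± 0.15, adjusted p = 0.0498). Cd63 had 255, 243 and 229 CPM in vehicle sgOgfod1 mice, against 338, 312 and 331 CPM in vehicle sgScramble mice, without overlap (-0.43 ± 0.10, adjusted p = 0.0372). Leaving out any 1 of the 6 libraries ended the Cd63 call, and 5 of the 6 ended the Neu1 call, so at most 1 of the 2 was left. Atp6v0d1 footprints were lower in sgOgfod1 mice under both treatments, with 71.4 and 80.7 CPM in treated sgOgfod1 against 96.9 to 103 CPM in treated sgScramble mice and 73.7 to 89.9 CPM in vehicle sgOgfod1 against 101 to 109 CPM in vehicle sgScramble mice. The groups did not overlap, but the differences of -0.39 and -0.36 missed the threshold (adjusted p = 0.0819 and 0.0727).

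The test of whether treatment acted differently in the genotypes called 0 of 33 in RNA, beside 0 of all 21474 genes, and 0 of 33 in footprints, beside 0.0656% of all genes. At an unadjusted p under 0.05 there were 4 genes in each assay, among them Psap and Lgmn in both, and DESeq2 also called 0 of 33 in each assay. The calls that were reached in 1 genotype and not in the other are therefore not shown to differ between them. For Psap footprints this difference was -1.15 ± 0.37 (adjusted p = 0.398) and for Ulk1 footprints -0.77 ± 0.30 (adjusted p = 0.447).

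The third question concerns translation efficiency, that is, footprints relative to RNA of the same mouse. Per length and relative to the median of 9125 genes, vehicle sgScramble cells had 16 of the 33 above and 17 below that median. Ctsl had the highest ratio, at 3.18 ± 0.27 on the log2 scale (SD, n = 3 mice), followed by Gabarapl2 at 2.99 ± 0.09 and Map1lc3b at 1.80 ± 0.22. The first 2 did not differ beyond their spread. The principal transcript of Ctsl has 6168 bases and its coding sequence 1002, so its ratio, its rank and its low RNA level per kb rest on that length. Mcoln1 had the lowest ratio, at -2.47 ± 0.26, which is the 1.11th percentile of the genes, with Wipi2, which binds a phosphoinositide on the growing autophagosome, at -1.45 ± 0.20. Hydrolases lay on both sides, with Ctsa at 0.93 ± 0.04 and Ctsb at 0.92 ± 0.10 above and Ctss at -0.61 ± 0.06 below. In treated mice Ctsl was at 3.73 ± 0.10 in sgOgfod1 and 3.26 ± 0.23 in sgScramble cells, where Gabarapl2 at 3.36 ± 0.16 was the higher one, within the spread. Mcoln1 was the lowest in treated mice too, at -2.57 ± 0.11 in sgOgfod1 and -2.23 ± 0.40 in sgScramble cells. Since coding length stands for the footprint side and full transcript length for the RNA side, a ratio of a gene with long untranslated ends depends on the transcript assumed.

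**Figure D4:**
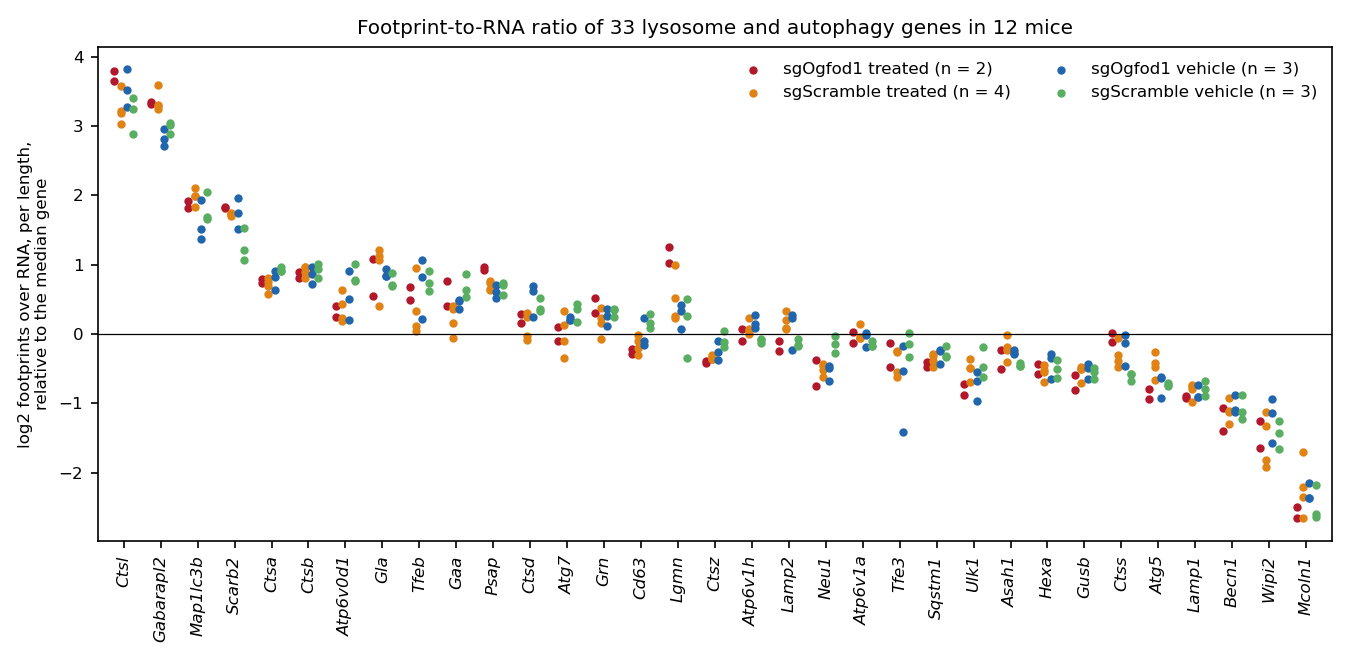
Log2 ratio of footprints to RNA per length for each of the 33 genes in 12 mice, relative to the median of all genes, ordered by vehicle sgScramble mice. Means of vehicle sgScramble mice run from Ctsl near 3.18 to Mcoln1 near -2.47. Some genes spread widely across the mice, such as Lgmn from -0.34 to 1.25 and Tfe3 from -1.41 to 0.02.

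Changes of this ratio with treatment or genotype were not called for any of the 33 genes by edgeR's quasi-likelihood test in any of the 5 contrasts. In sgOgfod1 cells 0 of 33 were called with treatment, beside 0.0839% of all genes, with 3 at an unadjusted p under 0.05. In sgScramble cells 0 of 33 were called, beside 0.93% of all genes, with 10 at an unadjusted p under 0.05. The smallest adjusted p there was that of Gaa, the acid alpha-glucosidase, at 0.0757 for a change of -0.54 ± 0.14. Gabarapl2 had positive values in both genotypes, 0.56 ± 0.16 in sgOgfod1 (adjusted p = 0.421) and 0.29 ± 0.13 in sgScramble cells (adjusted p = 0.404). Between genotypes there were 0 calls under treatment (5 at an unadjusted p under 0.05) and 0 under vehicle (3), beside 0.0489% and 0.0594% of all genes, and 0 for the difference of treatment effects (4), beside 0 of all 28606 genes. DESeq2 was not run on this ratio.

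A wider list of 121 further lysosome and autophagy genes set the 33 in context. In RNA 9 rose and 8 fell in sgOgfod1 cells, which is 14.0% of the list beside 9.87% of all and 12.5% of protein-coding genes. In sgScramble RNA 13 rose and 10 fell, 19.0% beside 12.9% of all and 16.5% of protein-coding genes. In footprints, where 119 were tested, 0 rose and 13 fell in sgOgfod1 cells, and 2 rose and 23 fell in sgScramble cells. Over protein-coding genes 2.67% rose and 5.02% fell in sgOgfod1 footprints and 6.23% rose and 10.3% fell in sgScramble footprints. The median log2 change of the wider list in footprints was -0.20 in sgOgfod1 and -0.23 in sgScramble cells, and in RNA -0.03 and -0.05.

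Several of the wider hydrolases fell in both assays. Pla2g15, the lysosomal phospholipase A2, averaged 16.3 ± 0.60 footprint CPM in treated and 36.2 ± 2.13 CPM in vehicle sgOgfod1 mice (-1.15, adjusted p = 0.000702), and 22.6 ± 3.66 CPM in treated and 51.8 ± 5.07 CPM in vehicle sgScramble mice (-1.19, adjusted p = 4.72e-05). Gm2a, the activator that presents GM2 ganglioside to the enzyme made of Hexa, averaged 11.2 ± 4.88 footprint CPM in treated and 45.2 ± 11.4 CPM in vehicle sgOgfod1 mice (-2.03, adjusted p = 0.00582). In sgScramble mice it averaged 16.4 ± 5.06 CPM in treated and 53.6 ± 4.57 CPM in vehicle mice (-1.70, adjusted p = 0.00205). Its RNA fell too, with log2 changes of -1.15 in sgOgfod1 (adjusted p = 0.0103) and -0.91 in sgScramble cells (adjusted p = 0.0255), so the 2 genes of GM2 breakdown were both lower in all 4 comparisons. Naglu, which removes an acetylated sugar from heparan sulfate, had RNA log2 changes of -0.82 in sgOgfod1 and -0.68 in sgScramble cells. Its footprint log2 changes were -0.87 in sgOgfod1 and -0.88 in sgScramble cells, and all 4 passed the test.

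Of the 41 autophagy genes on the wider list, 3 were called higher and 2 lower in sgOgfod1 RNA, and 5 higher and 1 lower in sgScramble RNA. Over protein-coding genes 12.5% were called in sgOgfod1 RNA (7.0% higher, 5.46% lower) and 16.5% in sgScramble RNA (11.1% higher, 5.46% lower). The counts of the 41 lie near these shares. The autophagy genes called lower, named after their values were seen, were Calcoco1 (-0.76, adjusted p = 0.0145) and Rubcn (-0.76, adjusted p = 0.0372) in sgOgfod1 and Atg16l2 (-0.81, adjusted p = 0.0194) in sgScramble cells. Optn, a cargo receptor, averaged 21.9 ± 7.18 RNA CPM in treated and 9.42 ± 2.27 CPM in vehicle sgOgfod1 mice (1.21, adjusted p = 0.00157). In sgScramble mice it averaged 14.5 ± 4.05 CPM in treated and 5.72 ± 0.85 CPM in vehicle mice (1.34, adjusted p = 0.00048). Wipi1, a relative of Wipi2, rose with log2 changes of 0.73 in sgOgfod1 (adjusted p = 0.00913) and 0.86 in sgScramble cells (adjusted p = 0.00175). Gabarapl1, an Atg8-type protein, rose in sgScramble RNA by 0.76 (adjusted p = 0.0023). Between genotypes, Ncoa4, the receptor that sends ferritin to the lysosome, was lower in sgOgfod1 RNA under treatment (-0.39, adjusted p = 0.0333) and under vehicle (-0.59, adjusted p = 0.0092). Footprints of Igf2r, the receptor that sorts new hydrolases to the lysosome, were higher in sgOgfod1 cells, by 2.08 under treatment (adjusted p = 0.041) and by 2.22 under vehicle (adjusted p = 0.0389). Its mean under treatment, 85.3 ± 66.4 CPM in 2 treated sgOgfod1 mice against 20.2 ± 3.54 CPM in 4 treated sgScramble mice, rests on a wide spread, while under vehicle it was 49.2 ± 2.90 against 10.7 ± 2.55 CPM.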

How the data were processed

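RNA (Smart-seq2, without strand or molecular identifiers) and ribosome footprints were measured in sorted GFP+ marrow cells. The deposited values are raw counts per gene. Tools named in the submitters' processing notes are featureCounts, STAR, Bowtie2, cutadapt and SAMtools, the build is GRCm38 (mm10), and versions are not given in the sources used here. Gene symbols were found for 55227 of 55487 identifiers. Counts were tested with edgeR 4.0.16 (R 4.3.3, limma 3.58.1): TMM scaling, filterByExpr, robust quasi-likelihood fits of all 4 groups per assay (19 residual degrees of freedom in RNA, 8 in footprints), and Benjamini-Hochberg adjustment over 21474 genes in RNA, 18290 in footprints and 28606 for translation efficiency. A call is an adjusted p under 0.05. Translation efficiency is the assay-by-group term in 1 model with the mouse as a block. Alternatives included DESeq2 1.42.0, other scalings, no filter, leaving out each library, and a replicate block. Mice are biological replicates per the labels. Depth was 31.9 to 142.7 M counts in RNA and 5.71 to 14.6 M in footprints (M, mega), so counting error is largest for footprints of Tfe3, Lgmn, Tfeb, Ulk1 and Mcoln1. The scripts were tested on simulated counts. Members called in any comparison were described in full, and the rest by ranges. Of the wider list, genes among the 4 smallest p of a contrast may be named, with their values in other contrasts. The members and lists were chosen with earlier results of these data known. One result of the wider list is not reported here.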

Additional observations from a re-analysis of the deposited data

Results flagged for a closer look

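In 9 of 75 groups of 4 to 10 libraries, a member's highest or lowest library lay far from the rest, where chance flags about 1 in 20 groups. Treated sgOgfod1 mouse 3 was high in RNA for Ctsz (562.5 CPM, others 240.2 to 349.9), Hexa (332.2 CPM, others 221.2 to 239.9) and Cd63 (1516 CPM, others 769.2 to 950.9). Treated sgScramble mouse 4 was high in RNA for Atg7 (201.5 CPM, others 70.1 to 115) and low for Neu1 (71.6 CPM, others 142.3 to 165.9). Treated sgScramble mouse 5 was high in footprints for Hexa (84.9 CPM, others 72.0 to 73.9) and low for Ulk1 (5.02 CPM, others 7.62 to 8.10). Ctsl footprints were low in treated sgScramble mouse 3 (25.8 CPM, others 27.9 to 28.1). Ctsl RNA was high in vehicle sgScramble mouse 2 (28.2 CPM, others 16.8 to 19.3).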

How the results depend on the processing

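No call of a member changed sign under any alternative, but over the alternative settings 56 checks of a call lost it and 159 kept it. Of 113 counts of calls, 91 stayed within 1.5 times and 22 moved. Many of the 91 were counts of 0 that stayed 0, in RNA between genotypes, the interactions and translation efficiency. In sgOgfod1 RNA the count with treatment, 3, was 6 with DESeq2, 5 without a scaling factor, 9 with limma voom, 5 on protein-coding genes and 7 without treated sgScramble mouse 4 and treated sgOgfod1 mouse 3. The shares of all genes tested moved too, from 9.87% to 15.1%, 11.6%, 17.2%, 14.5% and 18.2% in the same order. In sgScramble RNA, 6 became 3 with a replicate block and 1 with a term for library numbers. The share of all genes went from 12.9% to 6.89% and 7.67%. Between genotypes under treatment, RNA had 1 call with DESeq2 (Atp6v0d1) and 1 in the mice with footprints (Ulk1), beside 2.68% and 2.3% of all genes. In footprints the term for library numbers left 0 calls in sgOgfod1, 2 in sgScramble, 0 between genotypes under treatment and 1 under vehicle. Of all genes it left 0.0328%, 8.22%, 0.0109% and 1.91% in the same order. Between genotypes under treatment, footprints had 2 calls with DESeq2, 2 without a scaling factor, 3 without a filter and 0 with the replicate block. All genes had 3.12%, 4.14%, 2.1% and 0.667% in the same order. Under vehicle they had 1 with RLE size factors, 0 without a scaling factor and 0 with the replicate block, beside 1.77%, 2.09% and 0.514% of all genes. Translation efficiency in sgScramble cells had 6 calls without a scaling factor, all lower, beside 88 higher and 865 lower of all 28606 genes. On protein-coding genes it had 2 calls, beside 5.58% of the genes tested. The cause was not tested. Leaving out each library gave 2 to 4 and 6 to 8 calls in RNA of sgOgfod1 and sgScramble cells, 3 to 10 and 3 to 4 in footprints, 0 to 2 and 0 to 1 between genotypes in footprints under treatment and vehicle, 0 to 1 for the footprint interaction (1 without vehicle sgOgfod1 mouse 4), and 0 otherwise. Replicate numbers did not pair the mice: deviations of same-numbered mice correlated between -0.49 and 0.43 in 31 RNA pairs and between -0.09 and 0.09 in 11 footprint pairs. Without a scaling factor the log2 changes of the 33 genes shifted by a median of -0.16 in sgOgfod1 and -0.19 in sgScramble RNA and by -0.20 in sgScramble footprints, while the median change of all genes became -0.16, -0.17 and -0.21. Footprints, with 2 treated sgOgfod1 mice and down to 13 counts a gene, are limited most by depth and number.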
